A study of Mus musculus with 6 samples.

Results

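Imprinted genes are transcribed mainly from 1 parental copy, and the genes described here are 10 of them that are often followed as a stability check of stem cell cultures: H19, Igf2, Igf2r, Meg3, Peg3, Peg10, Grb10, Cdkn1c, Plagl1 and Mest. They were chosen by symbol, without regard to case, from a table of 18388 genes, and 8 of the 10 had a row, written there in capitals (IGF2, IGF2R, PEG3, PEG10, GRB10, CDKN1C, PLAGL1 and MEST). H19 and Meg3, the long noncoding RNAs of the list, were not analysed here. RNA-seq was carried out on aggregates modelling the mouse morula, grown from mouse expanded pluripotent stem cells in N2B27LCDM medium and then in an induction medium. There were 3 vehicle libraries (DMSO) and 3 libraries exposed to perfluorooctanoic acid (PFOA), a persistent fluorinated surfactant. No source used here gives the dose, the time of exposure, the strain of the cells or the number of cell lines, or says whether the replicates of a group were separate cultures. The p-values below therefore rest on the spread among 3 libraries a group, which could be technical.

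Imprinting is set in the germ line. DNA methylation placed on a control region in the egg or the sperm survives the wave of demethylation after fertilization, because the zinc finger protein ZFP57, which reads a methylated CpG inside a short sequence, and its partner TRIM28 hold it there. Loss or gain of that methylation in cultured pluripotent cells can silence the expressed copy or open the silent one, which is why these transcripts are watched in culture. FPKM counts sequenced fragments per transcript length and per library total and adds both parental copies, so the values below are total transcript levels and say nothing on the copy they came from.

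For Plagl1, Mest and Peg3 the promoter lies in or beside a control region that is methylated on the maternal copy. The 250 bases before a transcription start of each of these genes are shown (RefSeq, build GRCm38.p6, 5′ to 3′ on the strand of the gene). These pieces differ in matches to the ZFP57 core TGCCGC, searched on both strands (GCGGCA on the other). Capitals mark that core. The Plagl1 window is chr10:13090582-13090831 on the plus strand, the Mest window chr6:30737800-30738049 on the plus strand and the Peg3 window chr7:6730420-6730669 on the minus strand.
Plagl1: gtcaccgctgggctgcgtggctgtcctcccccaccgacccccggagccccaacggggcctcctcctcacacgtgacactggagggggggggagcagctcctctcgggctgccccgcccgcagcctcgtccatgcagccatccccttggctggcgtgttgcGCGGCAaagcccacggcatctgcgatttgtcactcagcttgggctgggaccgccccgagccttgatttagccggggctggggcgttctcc
Mest: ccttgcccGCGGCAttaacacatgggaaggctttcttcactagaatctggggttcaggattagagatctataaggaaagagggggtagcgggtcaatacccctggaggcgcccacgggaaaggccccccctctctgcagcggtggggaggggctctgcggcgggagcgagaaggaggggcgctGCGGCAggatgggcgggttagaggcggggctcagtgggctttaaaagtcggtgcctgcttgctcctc
Peg3: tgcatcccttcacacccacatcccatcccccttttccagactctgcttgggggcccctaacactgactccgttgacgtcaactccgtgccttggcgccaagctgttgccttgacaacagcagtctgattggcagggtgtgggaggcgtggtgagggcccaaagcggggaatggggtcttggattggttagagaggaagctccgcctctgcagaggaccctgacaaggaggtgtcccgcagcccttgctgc

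The Mest window shown held 2 cores, the Plagl1 window 1 and the Peg3 window 0, with 14, 19 and 8 CpG dinucleotides in the same order. Another Mest window, chr6:30733256-30733505, held 0 cores and 7 CpG. Of 32851 promoter windows of this length, 8.68% held the core and 0.87% held at least 2, and the median window had 6 CpG. Promoter windows were matched for 7 of the 10 genes, and H19, Peg10 and Cdkn1c were not matched. Of 14 windows for these 7 genes 4 held the core: 2 overlapping windows of Mest, 1 of Plagl1 and 1 of Meg3. A match is a run of letters and not a measured binding site. A window without a match says nothing on the rest of a control region.

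Some properties of the libraries bear on what follows. Total FPKM was 641975 to 657239 in DMSO and 585739 to 630644 in PFOA, and the depth behind the values is unknown. DMSO 1 and 2 stood apart in the pseudogene Rpl31-ps12, at 64.4 and 59.5 FPKM against 0 to 0.48 in the other libraries. All 10 markers of pluripotent cells were present, led by Dppa5a and Pou5f1. Summed over those 10, FPKM ran from 4348 to 4563 in DMSO and from 3776 to 4231 in PFOA, without overlap. Dppa5a, with a transcript of 619 nt, carried that gap: the other 9 summed to 2137 to 2260 in DMSO and 2103 to 2163 in PFOA, which overlap. One by one, 6 of the 10 were higher in PFOA and 4 lower (median log2 fold change 0.042), and Dppa5a went from −0.21 to −0.024 once the trend on transcript length described below was removed. As deposited, Dppa5a, Pou5f1 and Nanog were lower in each PFOA library than in each DMSO library, and Esrrb, Sall4 and Tfcp2l1 higher. That is 3 of 10 each way, against 13.7% and 13.5% of all tested genes. With that trend removed 4 of the 10 were wholly higher and 0 wholly lower, against 10.7% and 9.47% of all tested genes. The 12 fibroblast markers, listed because feeder fibroblasts express several imprinted genes strongly, summed to 99.8 to 114.9 FPKM in DMSO and 94.5 to 109.6 in PFOA, with Sparc making up most of it, 2 of the 12 below 1 FPKM and 0 of the 12 at 0 in every library. The 7 trophectoderm markers summed to 519 to 593 and 502 to 574, mostly from the keratins Krt8 and Krt18, at means of 215 and 271 FPKM. The 7 primitive endoderm markers summed to 7.5 to 8.62 and 8.05 to 8.46. Fewer cells of a type and less RNA per cell cannot be told apart in such bulk libraries.

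All 8 imprinted genes with a row were expressed, with a mean above 1 FPKM. Peg10 was the highest at 375 FPKM over the 6 libraries, above 98.2% of the 11876 tested genes. Igf2 followed at 129, Mest at 93.6, Igf2r at 23.0, Grb10 at 21.3, Peg3 at 18.1, Plagl1 at 15.7 and Cdkn1c at 5.18, where the median tested gene had 12.0. Each gene exceeded the next in this order in 6 of 6 libraries, except that Peg3 was above Grb10 in PFOA 1. The coefficient of variation between replicates ran from 0.92% (Grb10) to 10.3% (Igf2) in DMSO and from 1.22% (Mest) to 12.6% (Cdkn1c) in PFOA. Between PFOA and DMSO, 6 of the 8 genes were higher in PFOA and 2 lower, with changes in mean FPKM from −7.74% to 20.8%. The change of Peg10 was 20.8%, against coefficients of variation of 5.35% in DMSO and 5.10% in PFOA. Igf2 changed by 6.31%, against 10.3% and 2.34%, and Cdkn1c by −7.74%, against 4.59% and 12.6%. For Igf2 and Cdkn1c the change did not exceed both coefficients, and for the others it did.

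None of the 8 passed the threshold over all genes (0 of 8; limma on log2(FPKM + 1), Benjamini-Hochberg adjusted p under 0.05), against 0.00842% of all tested genes, which is 1 gene. At an unadjusted p under 0.05 in limma, 5 of the 8 were higher (8.56% of tested genes) and 1 was lower (12.5%). The median log2 fold change of the 8 was 0.15, against −0.0065 over all tested genes. In 5 of the 8 every PFOA library lay above every DMSO library (13.5% of tested genes) and in 1 every PFOA library lay below (13.7%). The genes were picked with earlier results of these data known, so the counts describe them and are not a test.

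**Figure D1:**
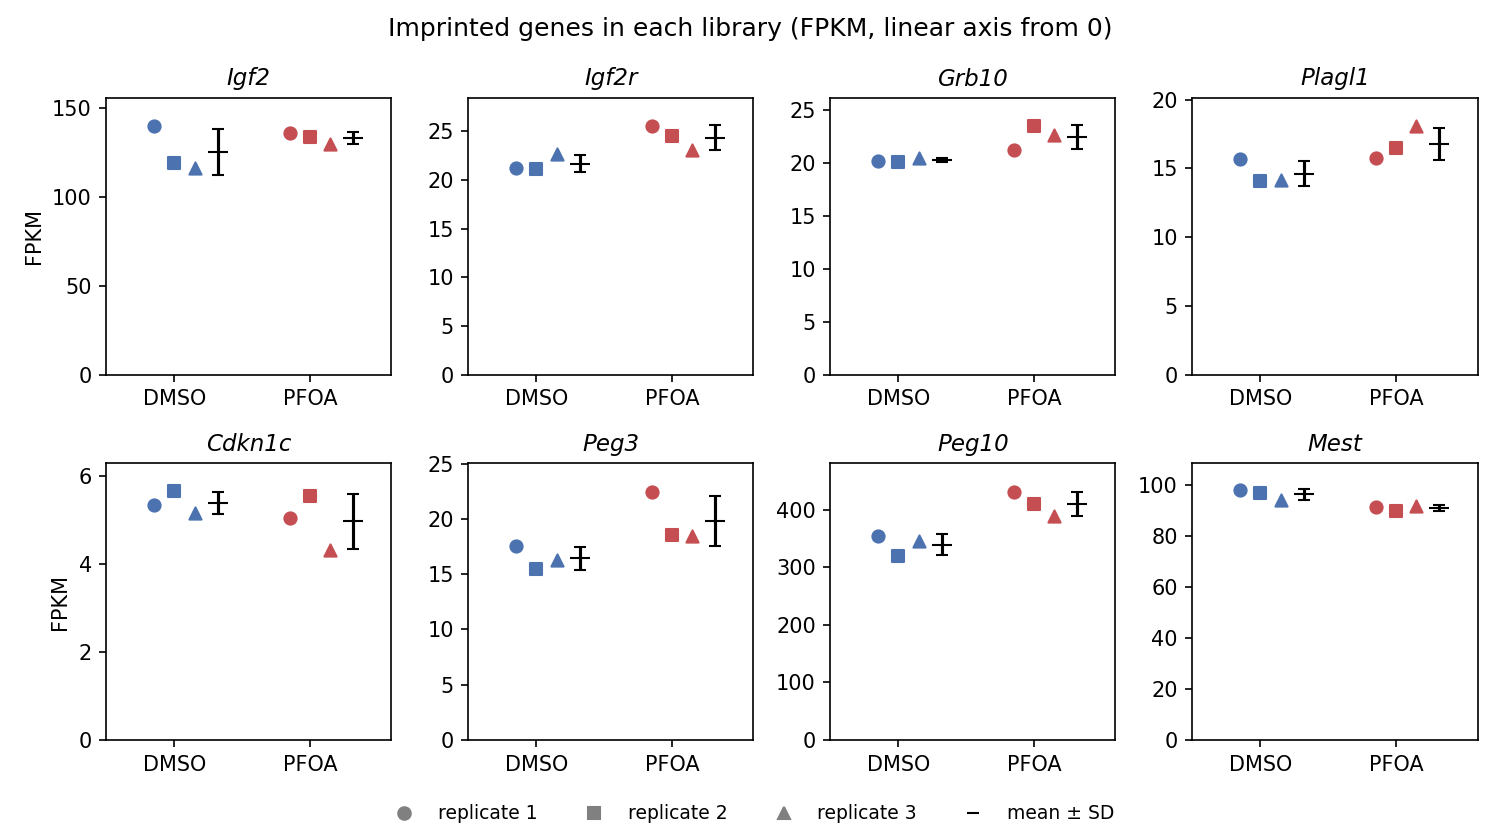
FPKM of the 8 imprinted genes (vertical axes, linear from 0) in the 3 DMSO and 3 PFOA libraries, with marker shape for the replicate number and a bar for the mean ± SD. Igf2r, Grb10, Plagl1, Peg3 and Peg10 were higher in each PFOA library than in each DMSO library, Mest was lower, and the groups overlapped for Igf2 and Cdkn1c.

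Igf2 encodes insulin-like growth factor 2, a fetal growth factor made from the paternal copy. In DMSO 1 to 3 it stood at 140.1, 119 and 116 FPKM, and in PFOA 1 to 3 at 136, 134 and 129.8. DMSO 1 was the highest of all 6 libraries, so the groups overlapped. The log2 fold change was 0.092 (95% confidence interval −0.060 to 0.24, limma adjusted p = 0.452), and it was 0.042 without DMSO 3 and 0.17 without DMSO 1, with 0.028 to 0.19 over all alternatives. In the GENCODE M21 transcripts, 75.95% of the 50-nt words of Igf2 also occur in another gene, chiefly the overlapping Gm49394, so its level is uncertain where the counting could split such reads.

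Igf2r encodes the receptor that binds IGF2 and carries it to the lysosome, and in the mouse it is made from the maternal copy. It was 21.2, 21.1 and 22.6 FPKM in DMSO and 25.5, 24.5 and 23.0 in PFOA. The groups were separate by a narrow margin, between DMSO 3 and PFOA 3. The means were 21.6 ± 0.86 and 24.3 ± 1.2 (SD over 3 libraries in each group; log2 fold change 0.16, SE 0.050, limma adjusted p = 0.152). Grb10, an adaptor that restrains insulin and IGF signalling and is made from the maternal copy in most tissues, was 20.2, 20.1 and 20.5 in DMSO. It was 21.2, 23.5 and 22.6 in PFOA, all above the tight DMSO values (log2 fold change 0.14, SE 0.046, limma adjusted p = 0.162). For the receptor and the adaptor each PFOA value exceeded each DMSO value, while those of the ligand Igf2 overlapped.

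Plagl1 encodes the zinc finger factor ZAC1, which activates other imprinted genes and restrains growth. It was 15.7, 14.1 and 14.1 FPKM in DMSO and 15.8, 16.5 and 18.1 in PFOA, and DMSO 1 and PFOA 1 differed by less than 1% of their level. The means were 14.6 ± 0.90 and 16.8 ± 1.2 (log2 fold change 0.19, SE 0.063, limma adjusted p = 0.165). Cdkn1c encodes the cyclin-dependent kinase inhibitor p57, made from the maternal copy. It was the lowest of the 8, at 5.35, 5.65 and 5.16 in DMSO and 5.05, 5.55 and 4.31 in PFOA, and the groups overlapped. Its log2 fold change of −0.10 (95% confidence interval −0.29 to 0.087, limma adjusted p = 0.504) went to −0.020 without PFOA 3 and −0.17 without PFOA 2. PFOA 1 and 3 were below each DMSO value and PFOA 2 was not.

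Peg3 encodes a zinc finger protein made from the paternal copy and known for effects on growth and maternal behaviour. It was 17.6, 15.5 and 16.2 FPKM in DMSO and 22.4, 18.5 and 18.5 in PFOA. PFOA 1 stood above the other 5 libraries. The means were 16.4 ± 1.1 and 19.8 ± 2.3 (log2 fold change 0.25, SE 0.079, limma adjusted p = 0.154), and the log2 fold change was 0.16 without PFOA 1. Peg10, a paternally expressed gene that derives from a retrotransposon and is needed in the placenta, was 354, 319 and 345 in DMSO and 431, 409 and 389 in PFOA. The lowest PFOA library exceeded the highest DMSO library by more than the SD of either group, which were 18.2 and 20.9 FPKM. Its log2 fold change of 0.27 (95% confidence interval 0.15 to 0.40, SE 0.054, limma adjusted p = 0.11) was the largest of the 8 in size and had the smallest p of the 8.

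Mest, also called Peg1, encodes a protein of the hydrolase fold made from the paternal copy. It was the 1 gene of the 8 for which each PFOA library was lower: 98.0, 96.6 and 94.1 FPKM in DMSO and 91.2, 89.7 and 91.9 in PFOA. The means of 96.2 ± 2.0 and 90.9 ± 1.1 differed by −5.53% (log2 fold change −0.081, SE 0.034, limma adjusted p = 0.224). Exons of Mest overlap those of Copg2 on the opposite strand, as exons of Igf2, Cdkn1c and Plagl1 overlap other annotated genes there, and no source used here says whether counting used strand. By parental copy, 4 of 5 paternally expressed genes and 2 of 3 maternally expressed genes were higher in PFOA, with median log2 fold changes of 0.19 and 0.14.

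**Figure D2:**
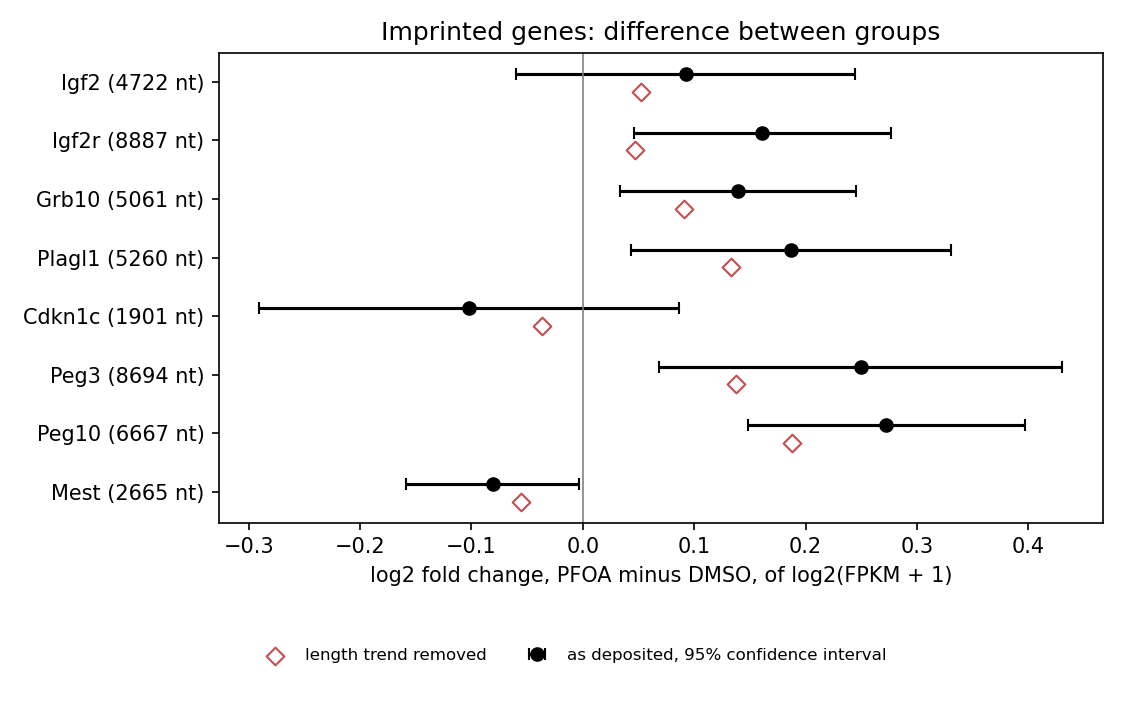
Log2 fold change (PFOA minus DMSO, horizontal axis) of each imprinted gene with the length of its longest transcript; filled points are the values as deposited with their 95% confidence intervals, and open diamonds the values after a trend on transcript length was removed from each library. Removing the trend took Peg10 from 0.27 to 0.19 and Igf2r from 0.16 to 0.047.

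Transcript length moved with these differences. The 6 imprinted genes with transcripts of at least 4000 nt (Igf2, Igf2r, Grb10, Plagl1, Peg3 and Peg10) were the 6 that were higher, and the 2 under 3000 nt, Cdkn1c (1901 nt) and Mest (2665 nt), were the 2 that were lower. Among all tested genes of at least 4000 nt 77.8% were higher in PFOA (median log2 fold change 0.066), and 30.6% had every PFOA library above every DMSO library. Of those under 3000 nt 74.8% were lower, with a median of −0.067. The long genes had medians, set against the DMSO mean, of 0.11, 0.049 and 0.042 in PFOA 1 to 3, against −0.0051, −0.0075 and 0.014 in DMSO 1 to 3. PFOA 1 thus had the strongest length trend, and it was also the library in which Peg3, Peg10 and Igf2r were highest. Grb10 and Plagl1, also long, did not follow it and were lowest in PFOA 1 among the PFOA libraries. Igf2 was highest in PFOA 1 among the PFOA libraries, but DMSO 1 was above it.

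**Figure D3:**
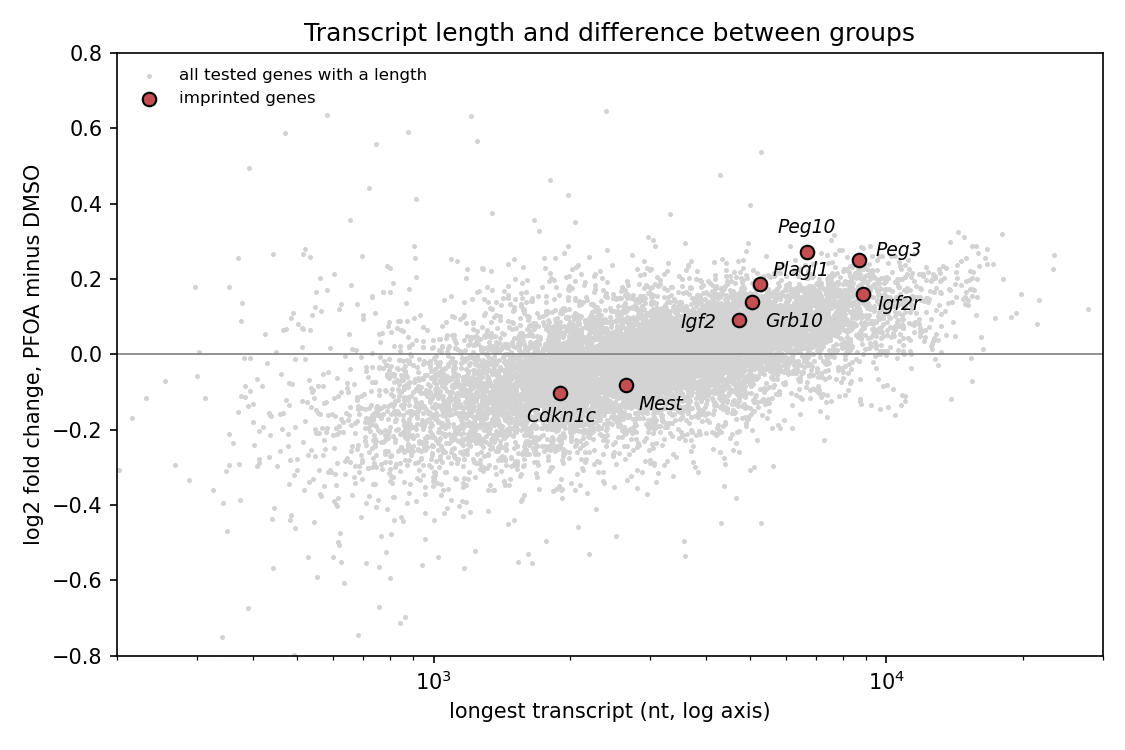
Log2 fold change (PFOA minus DMSO, vertical axis) against the longest transcript (nt, log axis) for 11512 tested genes in grey and the 8 imprinted genes in red; 24 genes lie outside the axes. The cloud rises with length (Spearman's rho 0.598 across genes, which are not independent replicates), and Peg10 and Peg3 lie towards its upper edge.

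With a per-library trend on the longest transcript removed, the same 6 genes stayed higher and the same 2 lower, and the median of the 8 was 0.072, against 0.0022 over all tested genes. On the log2 scale, set against its DMSO mean, Peg10 then stood at 0.071, −0.077 and 0.0064 in DMSO 1 to 3 and at 0.21, 0.21 and 0.15 in PFOA 1 to 3, so the groups stayed apart (log2 fold change 0.19, SE 0.042, unadjusted p = 0.0020 and adjusted p = 0.204 in limma). Of the 8, 1 gene (Peg10) was higher at an unadjusted p under 0.05 there, where 6.37% of tested genes were, and 0 were lower, where 7.05% were. Mest also stayed apart, at 0.012, 0.0041 and −0.016 in DMSO and −0.040, −0.076 and −0.051 in PFOA (log2 fold change −0.056, SE 0.028, limma adjusted p = 0.427). So 1 gene of the 8 stayed wholly above DMSO (10.7% of tested genes after this removal) and 1 wholly below (9.47%), and the groups overlapped for the other 6. Among them, Peg3 went to 0.14, Plagl1 to 0.13, Grb10 to 0.091 and Igf2r to 0.047. With DMSO 3 as the sole control, that is without DMSO 1 and 2 and with that library assumed to vary like those of PFOA, the log2 fold changes as deposited were 0.25 for Peg10, 0.27 for Peg3, 0.23 for Plagl1, 0.13 for Grb10, 0.099 for Igf2r, 0.19 for Igf2, −0.049 for Mest and −0.051 for Cdkn1c.

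Genes that share an imprinted cluster with one of the 10 were split in direction. Of 32 listed neighbours 26 had a row and 17 were tested. Of these 5 were higher (29.4%, against 47.6% of all tested genes) and 12 lower (median log2 fold change −0.032). In limma 0 passed, and an unadjusted p under 0.05 was reached by 2 higher and 2 lower genes. These are 11.8% each, against 8.56% and 12.5% of all tested genes. With the trend on transcript length removed the majority turned, to 10 higher and 7 lower (median 0.0017). Sgce, the sarcoglycan gene that shares its promoter region with Peg10, was 11.3 ± 0.48 FPKM in DMSO and 11.2 ± 0.68 in PFOA, with overlapping groups. Farther along the same cluster Ppp1r9a was 3.09 ± 0.0058 and 3.79 ± 0.43, and Pon2 had a log2 fold change of −0.069. Ppp1r9a, with a transcript of 9547 nt, went from a log2 fold change of 0.22 to 0.10 without the length trend, and its groups stayed apart. Beside Grb10, Cobl was 16.8 ± 0.60 and 18.8 ± 1.3, and Ddc had a log2 fold change of −0.056. Cobl went from a log2 fold change of 0.15 to 0.092 without the length trend, with overlapping groups. Copg2, across from Mest, was 13.2 ± 0.35 and 14.2 ± 0.81, the opposite direction to Mest, although their exons overlap. Slc22a3, near Igf2r, had a log2 fold change of −0.022.

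The cluster of Meg3 was represented by its protein-coding genes, which are expressed from the paternal copy. Dlk1, a Notch-related growth regulator, was 5.22, 5.17 and 5.87 FPKM in DMSO and 4.39, 4.13 and 4.83 in PFOA, lower in each PFOA library (log2 fold change −0.24, SE 0.072, limma adjusted p = 0.148). With the length trend removed it was −0.27 (unadjusted p = 0.0045, adjusted p = 0.237 in limma), so Dlk1, with a transcript of 4653 nt, went against the trend of long transcripts. The retrotransposon-derived Rtl1 was 1.29 ± 0.0058 and 1.39 ± 0.099. Dio3, which inactivates thyroid hormone, was 1.75 ± 0.040 and 1.42 ± 0.26. In the cluster of Cdkn1c the placental growth regulator Phlda2 was 80.0 ± 7.1 and 74.9 ± 8.9, Cd81 136.6 ± 4.1 and 133.7 ± 7.5, and Nap1l4 85.3 ± 1.7 and 85.2 ± 1.4. Tssc4 was 21.7 ± 0.15 and 19.6 ± 1.5, lower in each PFOA library. With the length trend removed its log2 fold change went from −0.14 to −0.044, and its groups overlapped. The trophoblast factor Ascl2 had a log2 fold change of −0.086, Slc22a18 of −0.17 and Osbpl5 of 0.11, all with overlapping groups. Next to Peg3, Usp29 and Zim1 averaged 0.71 and 0.54 FPKM and were below the filter.

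**Figure D4:**
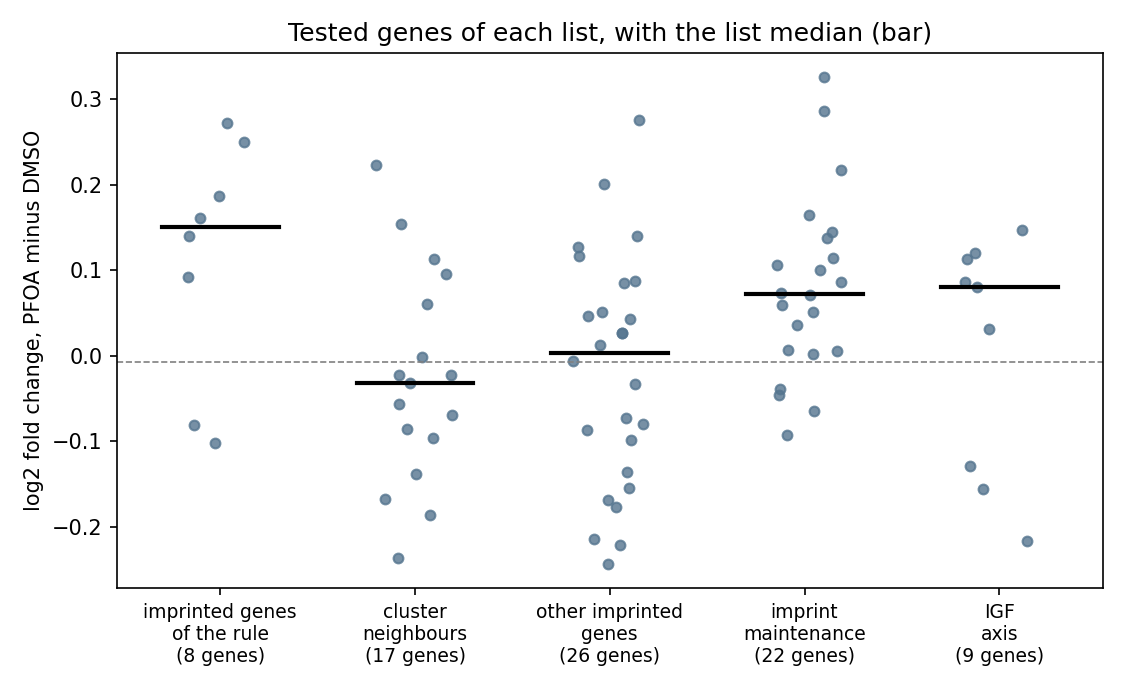
Log2 fold change (PFOA minus DMSO, vertical axis) of the tested genes of 5 lists, 1 point per gene, with the list median as a bar and the median of all tested genes as a dashed line. The medians were 0.15 for the 8 imprinted genes, −0.032 for cluster neighbours, 0.0032 for other imprinted genes, 0.072 for imprint maintenance and 0.081 for the IGF axis. The imprint maintenance list includes the TET enzymes.

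Imprinted genes outside these clusters were split evenly. Of 31 listed, 26 were tested, 13 higher and 13 lower (median log2 fold change 0.0032). In limma 0 passed, and an unadjusted p under 0.05 was reached by 4 higher and 5 lower genes. These are 15.4% and 19.2%, against 8.56% and 12.5% of all tested genes. Sfmbt2, a polycomb-related gene needed in the trophoblast, was 18.9, 19.2 and 20.5 FPKM in DMSO and 24.95, 24.5 and 22.3 in PFOA (log2 fold change 0.28, SE 0.055, limma adjusted p = 0.11). Its groups did not overlap, and with the length trend removed its log2 fold change was 0.17. Gab1, a docking protein of receptor tyrosine kinases, was 103 ± 1.2 and 112 ± 2.3, and the chromatin protein gene Jade1 79.1 ± 1.6 and 87.2 ± 3.9. Without the length trend Gab1 went from a log2 fold change of 0.12 to 0.070 and Jade1 from 0.14 to 0.078. In the other direction Snrpn, which encodes a splicing protein, was 53.4 ± 3.2 and 47.1 ± 1.5, and Blcap 14.7 ± 0.38 and 13.1 ± 0.45. Snrpn went from −0.18 to −0.12 without that trend and Blcap from −0.15 to −0.10. Gnas, the stimulatory G protein subunit and the highest of the list, was 212 ± 7.0 and 200.6 ± 6.4 with overlapping groups.

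Genes for proteins that keep imprints were listed as well, together with others that add or remove methylation, among them Tet1, Tet2 and Tet3. Of the 22, 18 were higher in PFOA (median log2 fold change 0.072), with a median transcript of 4992.5 nt. By limma 0 passed, and an unadjusted p under 0.05 was reached by 6 higher genes, Tet1 and Tet2 among them, and 0 lower genes. Among all tested genes 47.6% were higher, and 8.56% were higher at that p. For tested genes of at least 4000 nt these shares were 77.8% and 21.0%, against 81.8% and 27.3% in this list. Zfp57, which reads the core printed above, was 250.5, 259.5 and 259.8 FPKM in DMSO and 275, 270.4 and 284 in PFOA. Each PFOA library was above each DMSO library (log2 fold change 0.11, SE 0.038, limma adjusted p = 0.175), and with a transcript of 2597 nt Zfp57 went against the trend of short transcripts, at 0.13 with the trend removed (unadjusted p = 0.0038, adjusted p = 0.232 in limma). Its partner Trim28 was 680 ± 12 and 683 ± 15. Dnmt1, the methyltransferase that copies methylation at replication, was 85.2, 85.8 and 89.5 in DMSO and 99.3, 96.0 and 97.1 in PFOA (log2 fold change 0.17, SE 0.036, limma adjusted p = 0.118). The groups were again separate, and Dnmt1 was at 0.097 with the length trend removed.

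The TET enzymes oxidize methylated cytosine and so act in the other direction. Tet1 was 20.8 ± 1.6 FPKM in DMSO and 26.4 ± 3.4 in PFOA and Tet2 17.8 ± 0.96 and 21.98 ± 1.9, with log2 fold changes of 0.33 and 0.29. Their transcripts are long (14369 and 9179 nt), and without the length trend the log2 fold changes were 0.16 and 0.17. Tet3 (10904 nt) was at 0.071 as deposited and at −0.064 without the trend, where each PFOA library was below each DMSO library. Atrx, a chromatin remodeller, was 56.8 ± 2.8 and 66.2 ± 4.6, and Dnmt3l, a cofactor of new methylation, 311 ± 15 and 302.9 ± 2.5. Atrx went from a log2 fold change of 0.22 to 0.089 without the length trend. With the trend removed, 16 of the 22 were higher (72.7%, against 51.0% of all tested genes) and the list median was 0.030.

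On the IGF axis, 6 of 9 tested genes were higher (66.7%, against 47.6% of all tested genes) and 3 lower (median log2 fold change 0.081). In limma 0 passed, and an unadjusted p under 0.05 was reached by 2 higher and 2 lower genes. These are 22.2% each, against 8.56% and 12.5% of all tested genes. The 3 lower ones were the secreted binding proteins of the list that were tested, Igfbp2, Igfbp3 and Igfbp4. Igfbp2 was 139, 142 and 119.7 FPKM in DMSO and 112, 117 and 114 in PFOA (log2 fold change −0.22, SE 0.063, limma adjusted p = 0.141), with DMSO 3 close to the PFOA values. Its transcript is short (1307 nt), and with the length trend removed it was at −0.11 and its groups overlapped. Igfbp3 was 12.5 ± 0.39 and 11.3 ± 0.12, with a log2 fold change of −0.13 as deposited and −0.092 without the trend, and its groups stayed apart. The mRNA-binding proteins Igf2bp1 and Igf2bp2, which bind Igf2 transcripts, were 64.4 ± 1.9 and 69.7 ± 1.4 and 40.3 ± 0.77 and 43.9 ± 1.4. With the length trend removed Igf2bp1, a transcript of 8378 nt, was at 0.0053 and Igf2bp2 at 0.10, and the list had 4 genes higher and 5 lower. Igf1 was below the filter, at a mean of 0.012 FPKM.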

How the data were processed

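The authors deposited FPKM to 2 decimals for 18388 gene symbols, with 1 column per library. HISAT2 2.0.4, Bowtie2 2.2.5 and the build GRCm39 are named, per the submitters' processing notes, without their roles; no source used here gives the counting tool, the annotation or the use of strand. Groups and replicate numbers came from the titles. PFOA was compared with DMSO as log2(FPKM + 1) by limma 3.58.1 (R 4.3.3) in the 11876 genes whose mean FPKM reached 1, leaving out 6512. The prior variance followed the intensity, and two-sided p-values, Benjamini-Hochberg adjusted over all tested genes, were called under 0.05. Fold changes are on that scale and understate the change of low genes. FPKM keeps no library depth, so no interval for counting error is given. The fit was tested on simulated data.

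Lengths are the longest coding transcript, or the longest where none is coding, in GENCODE M21 (97.1% of tested genes). The trend on length was a loess curve (span 0.3) per library. Named genes are the listed imprinted genes, their tested cluster neighbours and, from other lists, up to 4 with the smallest p and 3 with the highest FPKM; Usp29, Zim1, Tet3, Igfbp4 and Igf1 were named after their values were seen. The members, lists and tests were chosen with earlier results of these data known.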

Additional observations from a re-analysis of the deposited data

How the results depend on the processing

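Of 18 alternatives, 3 were chosen after seeing the data: removing a GC trend, leaving out DMSO 3 and PFOA 1, and leaving out DMSO 1 and 2. In all 18 limma fits 0 of the 8 imprinted genes passed, and each gene kept its direction. The smallest adjusted p was 0.081, for Peg10 with library weights. The median log2 fold change of the 8 lay between 0.13 and 0.17, except 0.072 with the length trend removed, with or without the replicate block. Leaving out single libraries gave 0.13 to 0.16. Genes of the 8 higher at an unadjusted p under 0.05 numbered 1 with the length trend removed, 2 with the replicate block and that removal, and 3 without DMSO 1 and 2. The 1 lower gene, Mest, became 0 under quantile normalization, without the variance trend, with the replicate block, with the length trend removed (with or without the block) and without DMSO 1 and 2; leaving out single libraries gave 0 to 1, with 1 kept without DMSO 3.

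Over all genes, the 1 gene called lower became 0 without the filter, without the variance trend, with the replicate block, with the length trend removed (with or without the block) and without DMSO 1 and 2. It became 2 with library weights or the GC trend removed. Without DMSO 3 and PFOA 1 there were 10 higher and 42 lower. Leaving out single libraries gave 0 to 13 higher and 0 to 91 lower, with 13 and 39 without DMSO 3, 3 and 91 without PFOA 2, and 0 lower without DMSO 1, DMSO 2 or PFOA 3. The causes were not tested. The titles do not say whether equal replicate numbers pair the libraries. Deviations from the group means correlated at −0.11, −0.0095 and −0.14 across genes for numbers 1, 2 and 3. For unlike numbers they correlated at −0.065 to 0.15, the highest for DMSO 3 with PFOA 1. Such values cannot decide whether libraries were handled in pairs, since the deviations within a group are not independent. A paired fit therefore stands here only as the replicate block. Depth is unknown, and 3 libraries a group limit the precision: over all tested genes the 95% confidence interval had a median half-width of 0.14.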

Other observations

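Sfmbt2, Gab1, Slc38a4, Jade1 and Smoc1 are imprinted, in early embryos or in extraembryonic tissue, through histone methylation and not through DNA methylation of the germ line. They were singled out as a group after their values were seen, so no test is given. All 5 were higher in every PFOA library than in every DMSO library (13.5% of tested genes), at a median log2 fold change of 0.12. Of the 5, 3 had an unadjusted p under 0.05 in limma. At that p 8.56% of all tested genes were higher, and 21.0% of tested genes of at least 4000 nt. Slc38a4, an amino acid transporter, was 40.7, 37.1 and 39.5 FPKM in DMSO and 41.4, 41.3 and 41.95 in PFOA. Smoc1, a secreted matrix protein, was 9.98, 10.1 and 9.92 in DMSO and 10.5, 10.4 and 10.3 in PFOA. With the length trend removed, 4 of the 5 stayed apart (10.7% of tested genes), at a median of 0.070, and Slc38a4 overlapped. None of the 5 passed over all genes in limma (0 of 5).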
